A study of Homo sapiens with 9 samples.

Results

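The 50 genes described here encode RNA polymerase I, its initiation factors and the proteins that process ribosomal RNA (rRNA) and assemble the 2 ribosomal subunits. They were named by symbol for their role, with no measured value in the rule, but were chosen with earlier results of these data known. All 50 were found among the 62703 genes listed in each count file. All 50 also passed the low-count filter, as did 17623 genes in all. The cells were HepG2, an established human hepatocellular carcinoma line, either left untreated or given eliglustat at 20 µM or at 30 µM for 72 h, with 3 RNA-seq libraries in each of the 3 groups. Eliglustat inhibits glucosylceramide synthase, which makes the first glycosphingolipid from ceramide. The protocol for the RNA gives 72 h, while the series' design text adds a further 48 h, and whether that applies to these libraries is not stated. The labels give no duration for the controls and do not name the cultures behind each library, so the p-values measure only how far libraries of a group spread, and that spread may be technical.

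Ribosome production begins in the nucleolus, where RNA polymerase I copies the rRNA genes into a long precursor. Small nucleolar RNA particles modify that precursor, the box C/D particles by methylation and the box H/ACA particles by pseudouridylation. A large assembly called the small subunit processome folds and cuts the part that becomes 18S rRNA, while PeBoW and other factors process the part that becomes the 60S subunit. Many genes of this machinery are known targets of MYC, a transcription factor that pairs with MAX at the promoter sequence CACGTG, called the E-box. The counts used here are those of genes that encode the machinery, and rRNA itself was not analysed here.

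The libraries held 21103757 to 26782810 counts in genes. Levels are given as CPM, a gene's count set to a common library total, with library sizes scaled by TMM, a method that sets the bulk of genes to no change. Its factors were 1.04 to 1.06 in the control and 20 µM libraries and 0.905 to 0.916 at 30 µM, so the scaling matters most for comparisons with 30 µM. Without it, the median change of all genes moved by -0.21 (log2) when 30 µM was set against control and by -0.19 between the doses, but by only -0.016 at 20 µM. The share of records that aligned to more than 1 place was 12.4% to 12.8% in controls, 13.3% to 15.5% at 20 µM and 14.8% to 19.4% at 30 µM. Every treated library thus lay above every control in this share, and its part in the results below was not tested. All 10 hepatocyte markers were detected in every group (summed level 32870 to 34170 CPM in controls, 37050 to 37490 at 20 µM and 41970 to 42450 at 30 µM), while 6 fibroblast markers together reached at most 3.51 CPM and 4 endothelial markers at most 6.34. The 5 leukocyte markers, with PTPRC at 0 in all 3 groups and nearly all of the sum from LYZ, summed to 450.6 to 496.5 CPM in controls, 438.5 to 474.7 at 20 µM and 637.5 to 667.3 at 30 µM. At 30 µM against control LYZ rose (log2 change 0.48, adjusted p = 4.29e-13), as did the low PDGFRB (from 0.854 to 3.01 CPM, log2 change 1.82) and VWF (from 0.306 to 1.85 CPM, log2 change 2.57). The endothelial markers PECAM1 and CDH5, also low, fell in that comparison (log2 change -1.21 and -0.55). Of the 10 hepatocyte markers 4 rose and 4 fell there, with a median log2 change of -0.026, although their sum was higher. The part of these markers in the results below was not tested. In bulk RNA, fewer cells of a type and less RNA per cell cannot be told apart.

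At 20 µM, RNA for ribosome production fell almost throughout the machinery. Of the 50 genes, 45 fell against control, 1 rose and 4 did not pass the test (adjusted p under 0.05, edgeR's quasi-likelihood test). Over all genes tested, 16.9% fell and 17.2% rose, 34.2% in either direction. The median log2 change of the 50 was -0.32, against 0.0087 for all genes tested. BRIX1, a 60S assembly factor, had the lowest value at -0.64, and POLR1D, a subunit of RNA polymerases I and III, was the riser at 0.17. The genes that did not pass were NOP10, NOB1, NOP2 and PPAN; NOP10 fell without 20 µM library 2 (adjusted p = 0.0373). In 47 of the 50 every 20 µM library lay below every control library, and in 1 above (22.1% and 22.4% of all genes). The 50 genes together took 0.657% ± 0.00429 (SD, n = 3) of the counts in genes in controls and 0.514% ± 0.0126 at 20 µM.

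At 30 µM the genes of the machinery went both ways, in shares near those of all genes. Against control, 18 of the 50 genes fell, 10 rose and 22 did not pass the test, where 31.3% of all genes fell and 29.5% rose (60.8% in either direction), so the members' counts lay near the background. The median log2 change was -0.052, with NVL lowest at -0.61 and RRP12 highest at 0.65. The 10 risers were POLR1D, RRN3, NOP10, RRP9, RRP12, BYSL, BOP1, TEX10, GNL2 and DDX21. All 30 µM libraries lay below all controls in 20 genes and above them in 12 (33.8% and 31.3% of all genes). This comparison depends on the scaling. With library size alone 36 of the 50 fell and 4 rose (DDX21, POLR1D, RRP12 and TEX10), beside 8022 lower and 3530 higher genes of all tested, against 5515 and 5192 with TMM. With upper-quartile factors 23 fell and 6 rose, beside 6225 lower and 4636 higher. Some genes that did not pass with all 9 libraries and TMM passed when 1 library was left out, and each of them also passed under at least 1 other scaling or tool. NPM1 fell without 20 µM library 2, 20 µM library 3 or 30 µM library 2 (adjusted p = 0.00443, 0.0254 and 0.00197), and UTP18 rose without control 3, 20 µM library 2, 30 µM library 1 or 30 µM library 3 (adjusted p = 0.0165, 0.046, 0.0387 and 0.0435). POLR1B fell without control 1 (adjusted p = 0.0499), RRS1 fell without control 3 (0.0405), and without 30 µM library 3 GNL3 fell (0.0467) and DDX10 rose (0.0267). The members' share of counts in genes was 0.547% ± 0.0067 (SD, n = 3) at 30 µM.

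Between the doses most of the genes turned upward. From 20 to 30 µM 36 of the 50 rose, 2 fell (UBTF and NOP56) and 12 did not pass, while 28.0% of all genes rose and 28.9% fell (57.0% in either direction). The median log2 change was 0.27, against -0.029 for all genes, and the range ran from -0.15 for UBTF to 0.96 for RRP12. All 30 µM libraries lay above all 20 µM libraries in 37 genes and below them in 3 (29.7% and 31.4% of all genes). With library size alone, 20 of the 50 rose and 11 fell, beside 3029 higher and 7690 lower genes of all tested, and with upper-quartile factors 31 rose and 3 fell, beside 4108 higher and 6067 lower. The median of the 50 less the median of all genes was 0.30 under each of these scalings and with TMM. This difference was bound to stay the same, because a change of scaling moves the log2 changes of all genes alike. With TMM the same difference was -0.33 at 20 µM and -0.016 at 30 µM, each against control.

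A test of the difference between the 2 dose steps asked whether the step from 20 to 30 µM differed from the step from control to 20 µM. The later step was the higher one for 44 of the 50 genes and the lower one for 0, with a median difference of 0.58 (log2). At an unadjusted p under 0.05 the lower count was also 0 with edgeR, DESeq2 and limma voom, and all 50 fitted differences were above 0. Of all genes tested, 21.0% were higher and 19.9% lower (40.9% in either direction). The genes that did not pass were POLR1D, UBTF, LTV1, NOB1, NOP2 and NVL. Both steps use the same 20 µM libraries, with opposite sign, so the 2 steps are not independent of each other. With library size alone 39 genes were higher and 0 lower. Leaving out 1 library ended the call for 4 genes. These were NHP2 (without control 2, 20 µM library 1, 20 µM library 2 or 30 µM library 2, adjusted p = 0.0914, 0.127, 0.0804 and 0.0795), SENP3 (without control 1, 20 µM library 1 or 20 µM library 2, adjusted p = 0.0728, 0.122 and 0.104), PPAN (without control 1 or 20 µM library 1, adjusted p = 0.0526 and 0.119) and NOP16 (without 20 µM library 2, adjusted p = 0.0502). NVL passed without 20 µM library 3 or 30 µM library 1 (adjusted p = 0.0309 and 0.0123).

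**Figure D1:**
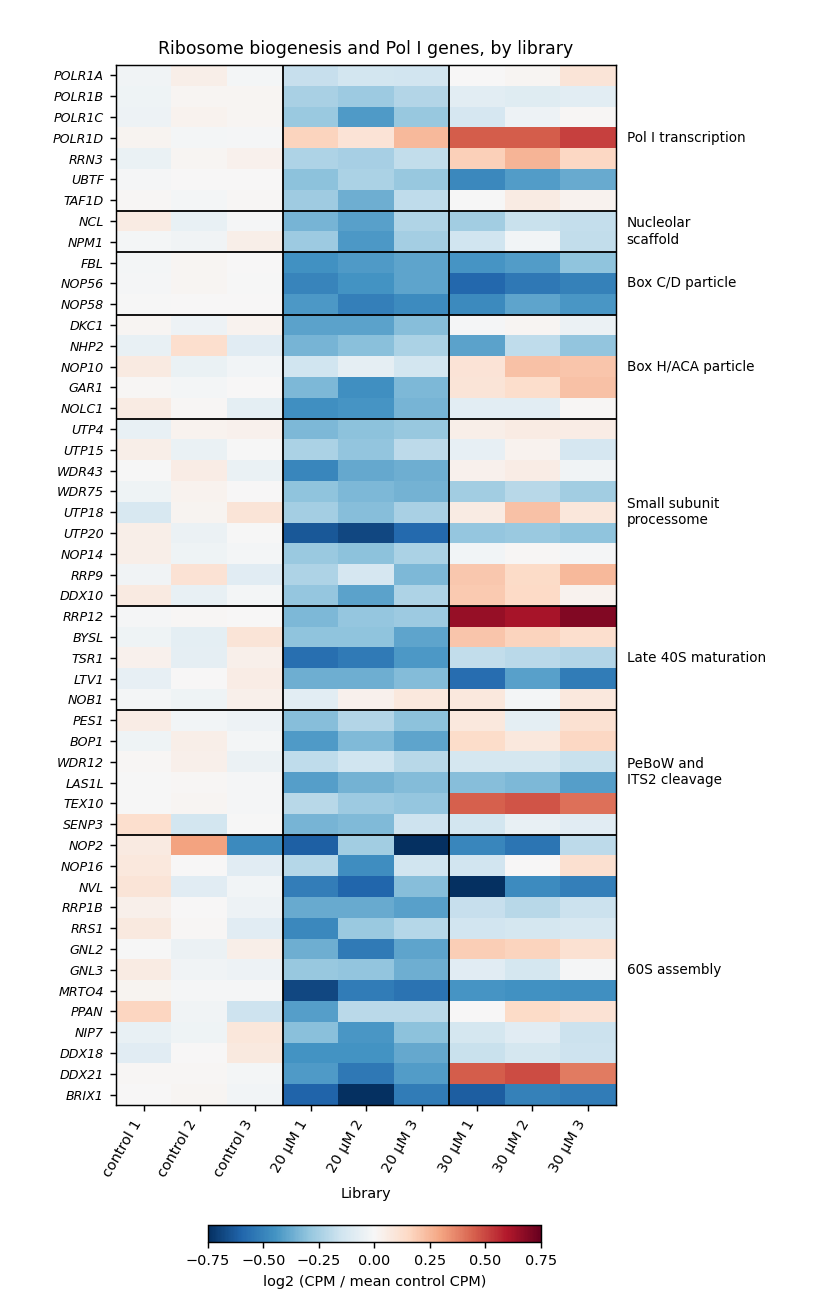
Each row is 1 of the 50 genes, grouped by role, and each column is 1 library; colour gives the log2 ratio of its CPM to the mean of the 3 controls, and colours stop at the ends of the scale. The 20 µM columns are blue in nearly every row, and the 30 µM columns are red for POLR1D, RRP12, TEX10 and DDX21 and blue for UBTF, the box C/D proteins, MRTO4 and BRIX1.

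**Figure D2:**
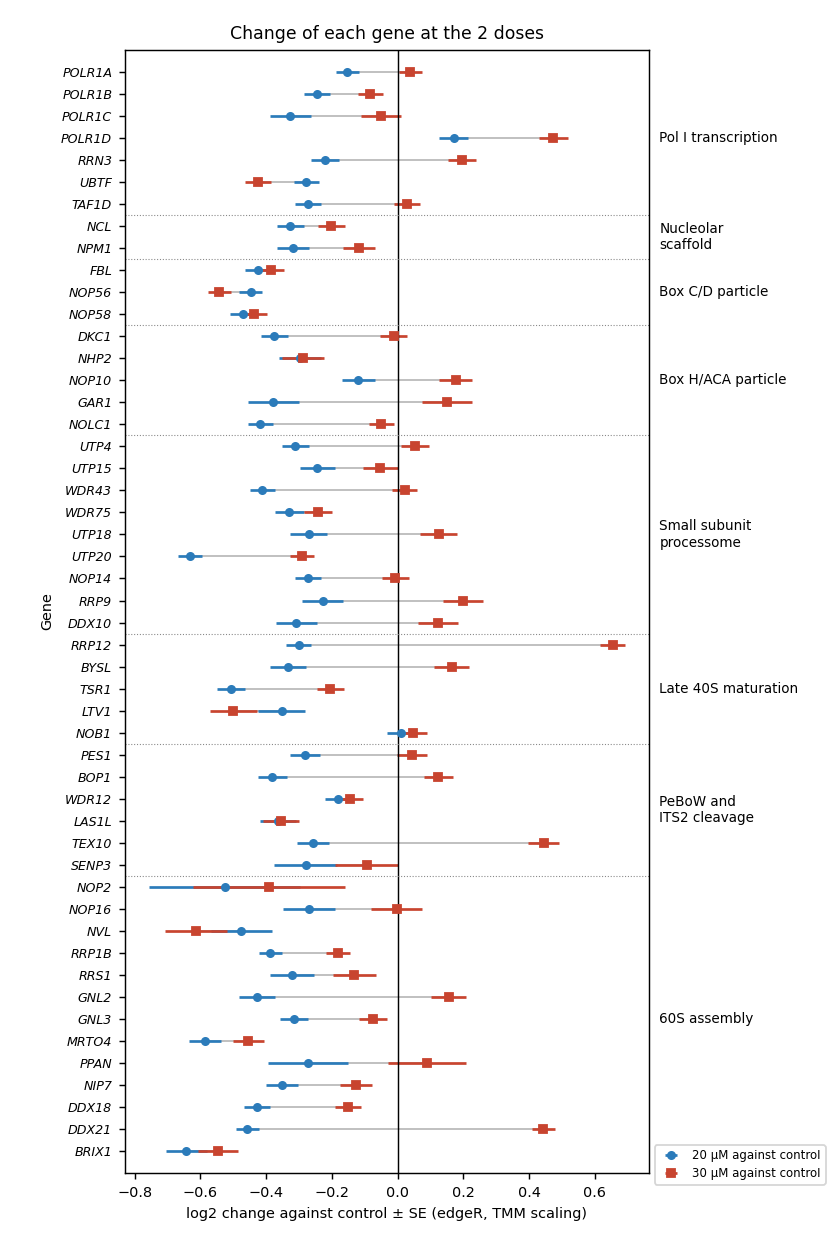
The horizontal axis is the fitted log2 change against control with its SE, for 20 µM (blue circles) and 30 µM (red squares); a grey line joins the 2 doses of a gene, which share the same controls. Most squares lie to the right of their circles, while for UBTF, NOP56, LTV1 and NVL the square lies to the left.

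Promoter sequences are shown next because the E-box recurs among these genes. RefSeq windows from 250 bases before to 50 bases after a start site (GRCh38.p14) were at hand for 43 of the 50 genes. The letters CACGTG, which read the same on both strands, were in at least 1 window of 18 of these 43 (41.9%). They were in 12.3% of the 11049 tested genes with a window and in 7.26% of all 35116 windows in the table. The matches cluster around the start: 16 of the 43 genes (37.2%) had one within 25 bases before to 50 bases after it, compared with 3.2% of tested genes. Stretches from 120 bases before to 30 bases after the start are printed 5′ to 3′ on the gene's strand, with E-boxes in capitals. These 6 genes were chosen after their values were seen, 3 with an E-box and 3 without, to show both kinds of promoter beside different dose patterns. They are DDX21 (chr10:68956527-68956676, plus strand), UTP20 (chr12:101279985-101280134, plus strand), WDR43 (chr2:28894547-28894696, plus strand), NOP56 (chr20:2652512-2652661, plus strand), UBTF (chr17:44219646-44219795, minus strand) and POLR1D (chr13:27620623-27620772, plus strand).
DDX21: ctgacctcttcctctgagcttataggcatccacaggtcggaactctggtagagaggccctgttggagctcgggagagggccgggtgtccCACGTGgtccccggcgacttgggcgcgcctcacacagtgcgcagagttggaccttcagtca
UTP20: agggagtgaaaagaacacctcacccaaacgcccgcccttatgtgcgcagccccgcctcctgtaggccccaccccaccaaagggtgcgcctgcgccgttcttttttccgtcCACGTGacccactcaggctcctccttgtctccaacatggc
WDR43: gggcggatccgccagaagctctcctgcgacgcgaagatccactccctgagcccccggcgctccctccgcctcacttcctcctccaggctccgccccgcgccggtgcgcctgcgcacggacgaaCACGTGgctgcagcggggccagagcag
NOP56: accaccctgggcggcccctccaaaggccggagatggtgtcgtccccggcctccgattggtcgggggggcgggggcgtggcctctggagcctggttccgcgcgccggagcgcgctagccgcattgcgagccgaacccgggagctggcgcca
UBTF: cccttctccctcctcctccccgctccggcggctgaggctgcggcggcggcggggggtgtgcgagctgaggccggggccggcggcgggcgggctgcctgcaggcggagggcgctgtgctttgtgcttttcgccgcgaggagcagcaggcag
POLR1D: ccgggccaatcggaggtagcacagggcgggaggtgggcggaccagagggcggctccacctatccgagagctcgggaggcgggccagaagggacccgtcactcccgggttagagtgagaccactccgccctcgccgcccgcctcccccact

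The E-box begins 31 bases before the start in DDX21, 10 bases before it in UTP20 and 3 bases after it in WDR43, and none is in the NOP56, UBTF or POLR1D windows. By role, 0 of the 7 polymerase I transcription genes held it, against 6 of 9 small subunit processome genes. Across roles the 20 matches began between 170 bases before and 35 bases after the start, with a median of 3.5 bases after it. Among related lists the share was 40.5% for other small subunit biogenesis genes and 28.6% for other large subunit genes, and 5.56% and 7.69% for large and small subunit ribosomal proteins. At 20 µM, 16 of 18 genes with the letters fell (median log2 change -0.34) and 22 of 25 without them fell and 1 rose (median -0.30). From 20 to 30 µM, 15 of 18 with the letters rose (median 0.35), and 15 of 25 without them rose and 2 fell (median 0.19). Of all genes, 16.9% fell and 17.2% rose at 20 µM, and 28.0% rose and 28.9% fell from 20 to 30 µM. The counts with and without the letters are over genes chosen by role, with no test of the difference. A match is a stretch of letters in this window, and no factor's binding was measured.

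**Figure D3:**
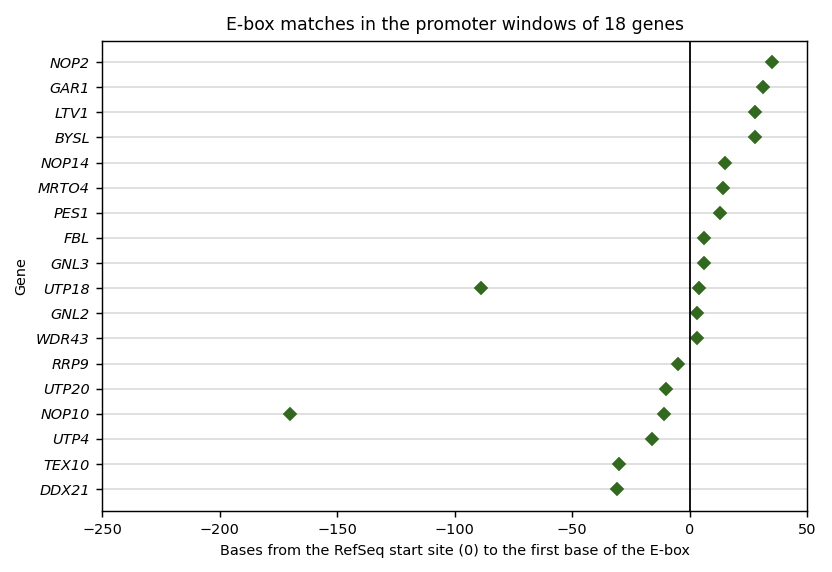
Each diamond is 1 CACGTG match in the promoter windows of the 18 genes that hold one, placed by the distance in bases of its first letter from the RefSeq start site (vertical line). All but 2 matches, 1 each in UTP18 and NOP10, lie from 31 bases before to 35 bases after the start.

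Among the polymerase I transcription genes, 6 of 7 fell at 20 µM and 1 rose, and 6 of 7 rose from 20 to 30 µM and 1 fell (3 and 1 with library size alone). Of all genes, 16.9% fell and 17.2% rose at 20 µM. In the later step 28.0% of all genes rose and 28.9% fell (17.2% and 43.6% with library size alone). UBTF, the upstream binding factor that coats active rRNA genes, was at 141, 142 and 142 CPM in the controls, 114, 120 and 116 at 20 µM and 102, 106 and 109 at 30 µM. It fell at each step with no overlap between groups, with log2 changes against control of -0.28 (SE 0.0383, adjusted p = 4.63e-07) at 20 µM and -0.42 (SE 0.0386, adjusted p = 1.58e-11) at 30 µM. RRN3 (also TIF-IA), which links the polymerase to the promoter, was at 83.4, 87.4 and 88.5 CPM in the controls, 73.5, 72.7 and 76.1 at 20 µM and 97.8, 103 and 96.2 at 30 µM. Its order was thus 20 µM, control, 30 µM, without overlap, with log2 changes of -0.22 (SE 0.0429, adjusted p = 9.32e-05) at 20 µM and 0.20 (SE 0.0424, adjusted p = 0.000155) at 30 µM; the rise against control became -0.014 with library size alone. POLR1D, which polymerase III also uses, was at 70.6, 68.7 and 69.2 CPM in the controls, 77.9, 74.6 and 82.2 at 20 µM and 95.3, 95.1 and 99.2 at 30 µM. It climbed at each dose, with log2 changes against control of 0.17 (SE 0.044, adjusted p = 0.00242) and then 0.47 (SE 0.0437, adjusted p = 2.2e-11), and no overlap.

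The other polymerase I transcription genes fell at 20 µM and, with TMM, lay near control at 30 µM. POLR1A, the largest subunit, was at 251, 263 and 253 CPM in the controls, 227, 232 and 231 at 20 µM and 256, 258 and 273 at 30 µM, a log2 change of -0.15 (SE 0.0346, adjusted p = 0.000624) at 20 µM. POLR1B, which forms the active centre with POLR1A, was at 107, 111 and 111 CPM in the controls, 92.5, 90.6 and 93.95 at 20 µM and 104, 103 and 104 at 30 µM, and fell at 20 µM (-0.24, SE 0.0388, adjusted p = 5.15e-06). POLR1C, a subunit shared with polymerase III, was at 30.8, 32.3 and 31.9 CPM in the controls, 26.1, 23.6 and 26 at 20 µM and 28.98, 30.8 and 31.8 at 30 µM, and fell as well (-0.33, SE 0.0624, adjusted p = 7.77e-05). TAF1D, a subunit of the promoter factor SL1, was at 159.5, 157 and 159 CPM in the controls, 132, 123 and 139 at 20 µM and 158, 165 and 162 at 30 µM and fell at 20 µM (-0.27, SE 0.0398, adjusted p = 1.26e-06). For none of these 4 did the change at 30 µM against control pass the test with TMM. The log2 values were 0.039 for POLR1A, -0.083 for POLR1B, -0.051 for POLR1C and 0.028 for TAF1D. Every 30 µM library of POLR1B nevertheless lay below every control. With library size alone all 4 fell at 30 µM against control (-0.17, -0.29, -0.26 and -0.18 in that order). The rise from 20 to 30 µM passed for all 4, but with library size alone POLR1C did not pass, and for POLR1A and POLR1B the sign turned (-0.0022 and -0.032).

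NCL (nucleolin) and NPM1 (nucleophosmin) are abundant nucleolar proteins that bind rRNA and ribosomal proteins. NPM1 was at 660.3, 654 and 687 CPM in the controls, 553, 494 and 559.5 at 20 µM and 602, 657 and 587 at 30 µM. NCL was at 874, 805 and 831 CPM in the controls, 657, 631 and 714 at 20 µM and 699, 744 and 740.2 at 30 µM. Both fell at 20 µM, with log2 changes of -0.33 (SE 0.0408, adjusted p = 1.2e-06) for NCL and -0.32 (SE 0.0489, adjusted p = 0.000122) for NPM1. At 30 µM NCL stayed below control (-0.20, SE 0.0407, adjusted p = 0.000182) and NPM1 overlapped it (-0.12, SE 0.0488, adjusted p = 0.0524). The rise of NCL between the doses (0.12) was lost without 20 µM library 1 (adjusted p = 0.0862), 20 µM library 2 (0.0781) or 30 µM library 2 (0.0612), and turned to -0.069 with library size alone. Per kilobase of merged exon, NPM1 (174 CPM per kb in controls) and NCL (121) were the highest of the 50 genes, and NOP2 was the lowest at 0.554. Another gene model on the same strand covers 54.4% of NOP2 exons, so reads there could be split and the NOP2 level set too low.

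The 3 genes here that encode core proteins of the box C/D particle, which guides rRNA methylation, fell at both doses. Of all genes, 16.9% fell at 20 µM and 31.3% at 30 µM against control. FBL, the methyltransferase fibrillarin, was at 132, 134 and 133 CPM in the controls, 97.2, 99.2 and 101 at 20 µM and 97.9, 99.6 and 108 at 30 µM. NOP56 was at 272, 276 and 272 CPM in the controls, 194, 200 and 208 at 20 µM and 182, 189 and 192 at 30 µM. NOP58 was at 124, 125 and 124 CPM in the controls, 92.3, 87.3 and 89.8 at 20 µM and 89.4, 94.6 and 91.8 at 30 µM. In all 3 genes every treated library lay below every control. Against control NOP56 changed by log2 -0.45 (SE 0.035, adjusted p = 3.73e-12) at 20 µM and -0.54 (SE 0.0351, adjusted p = 3.22e-15) at 30 µM, FBL by -0.42 (SE 0.0406, adjusted p = 3.2e-10) and -0.39 (SE 0.0407, adjusted p = 4.98e-10), and NOP58 by -0.47 (SE 0.0396, adjusted p = 1.91e-11) and -0.44 (SE 0.0397, adjusted p = 1.56e-11). Between the doses FBL and NOP58 did not pass the test (0.039 and 0.034). The small fall of NOP56 (-0.096) was lost without 20 µM library 3 (adjusted p = 0.138), 30 µM library 1 (0.149) or 30 µM library 2 (0.0506).

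The box H/ACA particle, which turns uridines into pseudouridines and also serves telomerase, had 4 of its 5 genes lower at 20 µM (16.9% of all genes). At 30 µM against control 1 gene of the particle fell and 1 rose (31.3% and 29.5% of all genes). DKC1 (dyskerin), its catalytic protein, was at 107, 103 and 108 CPM in the controls, 79.9, 80.02 and 84.7 at 20 µM and 105, 107 and 102 at 30 µM. It fell at 20 µM (-0.37, SE 0.0409, adjusted p = 5.01e-09), and its 30 µM libraries overlapped the controls (-0.012, SE 0.0405, adjusted p = 0.814). NOLC1, a chaperone of both kinds of particle, was at 289, 278 and 263 CPM in the controls, 201, 204 and 217 at 20 µM and 262, 262 and 279 at 30 µM, overlapping the controls at 30 µM after a log2 change at 20 µM of -0.42 (SE 0.0387, adjusted p = 2.42e-10). GAR1 was at 17.8, 17.4 and 17.6 CPM in the controls, 13.9, 12.8 and 13.9 at 20 µM and 18.8, 19.3 and 20.5 at 30 µM; it fell at 20 µM (-0.38, SE 0.0778, adjusted p = 0.000198), and its value at 30 µM against control was 0.15 (SE 0.0757, adjusted p = 0.0844). NOP10, the smallest core protein, was at 59.5, 54.95 and 56.02 CPM in the controls, 51.2, 54.2 and 51.8 at 20 µM and 60.9, 66.1 and 65.7 at 30 µM; it did not pass at 20 µM (-0.12, SE 0.0496, adjusted p = 0.0627) and rose at 30 µM (0.18, SE 0.0491, adjusted p = 0.00233), a rise that became -0.033 with library size alone. NHP2 was at 39.6, 44.9 and 38.8 CPM in the controls, 32.3, 33.1 and 34.9 at 20 µM and 31.1, 36.05 and 33.5 at 30 µM, and fell at both doses (-0.30, SE 0.0629, adjusted p = 0.000297 and -0.29, SE 0.0632, adjusted p = 0.000185). Exons of RMND5B on the other strand cover 27.4% of the exons of NHP2, and whether the counting used strand is not given in the sources used here.

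All 9 small subunit processome genes fell at 20 µM, and 8 of 9 rose from 20 to 30 µM (16.9% and 28.0% of all genes). UTP20, a very long scaffold protein, was at 199, 187 and 192 CPM in the controls, 124, 120.3 and 129 at 20 µM and 158, 159 and 156 at 30 µM. It had the largest fall of the 9 at 20 µM, a log2 change of -0.63 (SE 0.037, adjusted p = 4.35e-15), and came back part of the way at 30 µM, where it remained below control (-0.29, SE 0.0367, adjusted p = 2.49e-08). WDR43, a member of the UtpA complex that binds the precursor first and links it to transcription, was at 186, 194 and 180.2 CPM in the controls, 133, 143 and 145 at 20 µM and 191, 194 and 184 at 30 µM. It fell at 20 µM (-0.41, SE 0.0391, adjusted p = 2.82e-10) and overlapped the controls at 30 µM (0.021, SE 0.0387, adjusted p = 0.66). The UtpA proteins UTP4, UTP15 and WDR75 were lower at 20 µM than in any control. UTP4 was at 85.5, 90.6 and 90.9 CPM in the controls, 70.3, 71.9 and 72.9 at 20 µM and 91.8, 92.8 and 92.3 at 30 µM. UTP15 was at 51.3, 48.1 and 49.7 CPM in the controls, 42.2, 40.4 and 43.3 at 20 µM and 47.7, 50.6 and 45.5 at 30 µM. WDR75 was at 76.9, 80.1 and 78.8 CPM in the controls, 63.8, 62.2 and 61.6 at 20 µM and 65.5, 68.1 and 65.7 at 30 µM and was the member that did not pass between the doses (0.087, and -0.11 with library size alone). The rise of UTP15 between the doses (0.19) became -0.0023 with library size alone.

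In the rest of the processome, NOP14, a 40S assembly factor, was at 107, 101 and 102 CPM in the controls, 85.4, 83.5 and 87.9 at 20 µM and 102, 104 and 103 at 30 µM. UTP18, of the UtpB complex, was at 47.7, 52.6 and 55.4 CPM in the controls, 43.5, 41.5 and 43.8 at 20 µM and 54.1, 60.5 and 55 at 30 µM. DDX10, an RNA helicase, was at 35.01, 32.2 and 32.99 CPM in the controls, 27.3, 25.3 and 28.4 at 20 µM and 38.2, 36.96 and 34.02 at 30 µM. These 3 fell at 20 µM, with log2 changes of -0.27 (SE 0.0402, adjusted p = 1.5e-06), -0.27 (SE 0.0564, adjusted p = 0.000237) and -0.31 (SE 0.0628, adjusted p = 0.000182) in that order, and did not pass at 30 µM against control. RRP9, a protein of the U3 particle, was at 36.1, 39.6 and 34.6 CPM in the controls, 31.3, 33.6 and 29.1 at 20 µM and 42.2, 40.6 and 43.4 at 30 µM. It fell at 20 µM (-0.23, SE 0.062, adjusted p = 0.00394) and rose above control at 30 µM (0.20, SE 0.0609, adjusted p = 0.00543). Both calls rest on single libraries: the fall was lost without control 2 (adjusted p = 0.0516), and the rise was lost without control 3 (adjusted p = 0.055) and became -0.012 with library size alone.

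The late 40S group had 4 of 5 genes lower at 20 µM (16.9% of all genes). At 30 µM against control 2 of the 5 fell and 2 rose, where 31.3% of all genes fell and 29.5% rose. RRP12, which helps export the small subunit precursor from the nucleus, was at 108, 109 and 109 CPM in the controls, 85.8, 88.5 and 89.6 at 20 µM and 171, 166 and 175 at 30 µM. It fell at 20 µM (-0.30, SE 0.0385, adjusted p = 1.21e-07) and then rose past control at 30 µM (0.65, SE 0.0376, adjusted p = 1.35e-16), a log2 change of 0.96 (SE 0.0382, adjusted p = 1.31e-20) between the doses. LTV1, an export factor that leaves the 40S late, was at 22.99, 24.03 and 24.9 CPM in the controls, 18.6, 18.6 and 19.1 at 20 µM and 16.1, 18.1 and 16.7 at 30 µM. It fell at 20 µM (-0.35, SE 0.071, adjusted p = 0.000153) and was lower still at 30 µM, with no overlap (-0.50, SE 0.0721, adjusted p = 3.07e-07), although the step between the doses did not pass (-0.15, SE 0.0737, adjusted p = 0.0906). TSR1, a GTPase-like factor on the same particles, was at 123, 114 and 123 CPM in the controls, 81.1, 83.2 and 89.05 at 20 µM and 105, 104 and 103 at 30 µM and fell at both doses (-0.51, SE 0.0425, adjusted p = 1.71e-11 and -0.20, SE 0.0421, adjusted p = 8.6e-05). Another gene model on the same strand covers 27.7% of LTV1 exons, and SRR on the other strand covers 20.7% of TSR1 exons. BYSL (bystin), needed for 18S processing, was at 46.6, 45.3 and 50.99 CPM in the controls, 38.7, 38.6 and 36.2 at 20 µM and 55, 53.4 and 52.03 at 30 µM; it fell at 20 µM (-0.33, SE 0.0543, adjusted p = 7.56e-06). Its rise at 30 µM (0.17) was lost without control 2 (adjusted p = 0.0633) and became -0.045 with library size alone. NOB1, the endonuclease that makes the end of 18S rRNA, was at 118, 117 and 122 CPM in the controls, 113, 122 and 126 at 20 µM and 126, 118 and 126 at 30 µM and passed the test in none of the comparisons; its log2 change at 20 µM was 0.011.

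**Figure D4:**
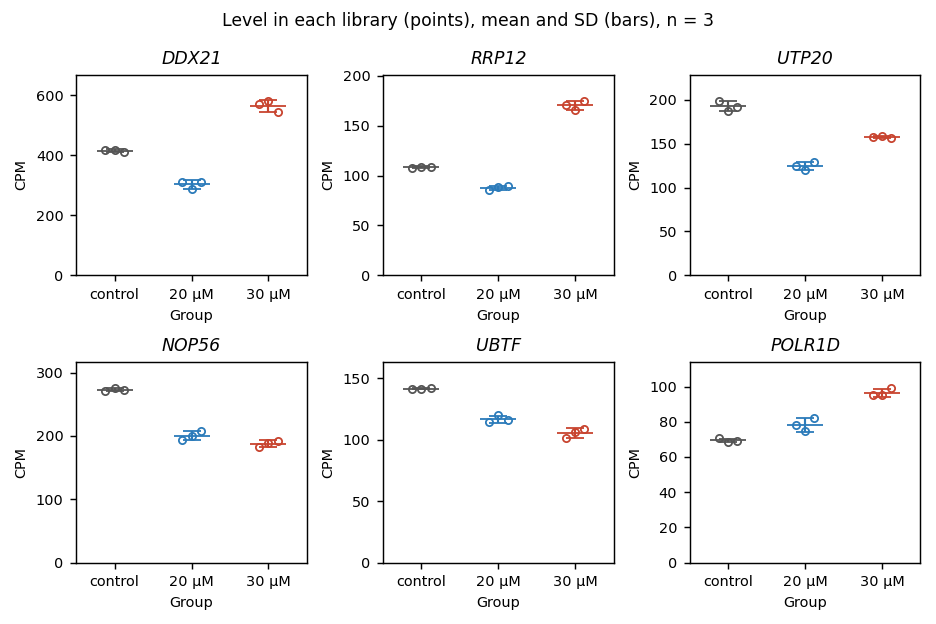
The level in CPM (vertical axes start at 0) is shown for each library as a point, with the mean and SD of the 3 libraries of a group as bars. DDX21 and RRP12 dip at 20 µM and exceed control at 30 µM, UTP20 dips and returns part of the way, NOP56 and UBTF stay low, and POLR1D climbs at each dose.

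PeBoW, the complex of PES1, BOP1 and WDR12, acts on the 60S precursor. Its genes and those of 3 factors around the second internal spacer fell at 20 µM (6 of 6, beside 16.9% of all genes). PES1 was at 111, 105 and 104 CPM in the controls, 85.5, 91.6 and 86.3 at 20 µM and 113, 102 and 115 at 30 µM. BOP1 was at 77.3, 81.7 and 78.4 CPM in the controls, 59.05, 63.02 and 60.2 at 20 µM and 86.99, 83.5 and 88.1 at 30 µM. WDR12 was at 134, 136 and 129 CPM in the controls, 117, 120.1 and 115 at 20 µM and 121, 122 and 118 at 30 µM. The log2 changes at 20 µM were -0.28 (SE 0.0459, adjusted p = 9.05e-06) for PES1, -0.38 (SE 0.0445, adjusted p = 2e-08) for BOP1 and -0.18 (SE 0.0378, adjusted p = 0.000233) for WDR12. At 30 µM the 3 partners differed in their own tests against control, with log2 values of 0.044 for PES1, which did not pass, 0.12 for BOP1, which rose, and -0.14 for WDR12, which fell. The rise of BOP1 was lost without control 1 (adjusted p = 0.0679), control 3 (0.0536), 30 µM library 1 (0.0529) or 30 µM library 3 (0.0576), and became -0.086 with library size alone. WDR12 did not pass between the doses (0.038).

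LAS1L, which cuts that spacer, was at 44.4, 44.8 and 44.1 CPM in the controls, 33.3, 34.8 and 35.5 at 20 µM and 35.5, 35.2 and 33.4 at 30 µM; it fell at both doses (-0.36, SE 0.0539, adjusted p = 1.65e-06 and -0.36, SE 0.0541, adjusted p = 7.91e-07). TEX10, a scaffold that works beside it, was at 48.8, 49.5 and 48.7 CPM in the controls, 42.4, 40.5 and 40.04 at 20 µM and 66.8, 68.02 and 65.2 at 30 µM. TEX10 fell at 20 µM (-0.26, SE 0.0487, adjusted p = 7.21e-05) and rose above every control at 30 µM (0.45, SE 0.0473, adjusted p = 5.94e-10). SENP3, the protease that removes SUMO from these factors, was at 13.6, 11.3 and 12.4 CPM in the controls, 9.74, 9.86 and 11.1 at 20 µM and 11.3, 11.96 and 11.7 at 30 µM. Its fall at 20 µM (-0.28) was lost without control 1 (adjusted p = 0.146), 20 µM library 1 (0.0851) or 20 µM library 2 (0.0763). The read-through gene SENP3-EIF4A1 covers 41.2% of SENP3 exons on the same strand, so reads there could be split.

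Of the 13 genes of 60S assembly, 11 fell at 20 µM, and 10 rose from 20 to 30 µM (16.9% and 28.0% of all genes). With library size alone 2 rose and 1 fell between the doses, where 17.2% of all genes rose and 43.6% fell. DDX21, a helicase that binds rRNA genes and the rRNA precursor, was at 417, 417 and 410 CPM in the controls, 309.5, 286 and 311 at 20 µM and 569, 581 and 543 at 30 µM. It fell at 20 µM (-0.46, SE 0.0348, adjusted p = 1.94e-12), rose past every control at 30 µM (0.44, SE 0.0345, adjusted p = 3.34e-13) and had the largest difference between steps of the 50 genes (1.36, SE 0.0617, adjusted p = 3.61e-18). GNL2, a nucleolar GTPase, was at 44.8, 43.5 and 46.3 CPM in the controls, 34.8, 31.1 and 34.2 at 20 µM and 51.1, 50.4 and 48.6 at 30 µM; it fell at 20 µM (-0.43, SE 0.055, adjusted p = 1.31e-07) and had a log2 difference between the steps of 1.01 (SE 0.0967, adjusted p = 2.37e-10). Its rise at 30 µM against control (0.16) was lost without control 2 (adjusted p = 0.0631) or 30 µM library 1 (0.0539) and became -0.054 with library size alone. DDX18, another helicase, was at 153, 163 and 171 CPM in the controls, 119, 119 and 124 at 20 µM and 144, 148 and 146 at 30 µM, and GNL3 (nucleostemin), a GTPase, was at 123, 116 and 115 CPM in the controls, 96.5, 96.01 and 91.5 at 20 µM and 111, 107 and 117 at 30 µM. Both fell at 20 µM, with log2 changes of -0.43 (SE 0.0395, adjusted p = 1.6e-10) and -0.31 (SE 0.0421, adjusted p = 2.65e-07). DDX18 was below control at 30 µM as well (-0.15, adjusted p = 0.00119), and GNL3 did not pass there (-0.075). Both rises between the doses were lost with library size alone, as were those of NIP7, NOP16 and PPAN.

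Other 60S factors were below control at both doses. BRIX1 was at 48.7, 49.2 and 47.97 CPM in the controls, 32.02, 27.5 and 33.8 at 20 µM and 31.7, 34.3 and 33.8 at 30 µM, with log2 changes of -0.64 (SE 0.0616, adjusted p = 3.31e-10) and -0.55 (SE 0.0616, adjusted p = 2.13e-09) against control. MRTO4, which holds the place of the ribosomal stalk during assembly, was at 70.7, 69.4 and 69.3 CPM in the controls, 43.5, 48.5 and 47.5 at 20 µM and 51.3, 50.9 and 50.7 at 30 µM, with -0.59 (SE 0.0484, adjusted p = 1.23e-11) and -0.45 (SE 0.0483, adjusted p = 6.04e-10). NVL, an ATPase of 60S maturation, was at 25.97, 22.9 and 23.9 CPM in the controls, 16.9, 16.04 and 19.4 at 20 µM and 12.96, 17.5 and 17.01 at 30 µM, with -0.47 (SE 0.093, adjusted p = 0.000223) and -0.61 (SE 0.0945, adjusted p = 3.7e-06). In these 3 genes no treated library reached the lowest control. RRP1B, a nucleolar protein that recruits a phosphatase, was at 175, 170.5 and 166 CPM in the controls, 131, 131 and 128 at 20 µM and 151, 147 and 152 at 30 µM; it too was below control at both doses (-0.39, SE 0.0361, adjusted p = 1.88e-10 and -0.18, SE 0.036, adjusted p = 4.89e-05), and it rose between the doses with TMM (0.20, adjusted p = 1.16e-05) but not with library size alone (0.011). The rise of MRTO4 between the doses (0.13) was lost without 20 µM library 1 (adjusted p = 0.185), 30 µM library 1 (0.0579) or 30 µM library 2 (0.0512) and became -0.060 with library size alone.

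For the remaining 60S genes the calls depended on single libraries or the reads may be shared with other genes. RRS1, which helps load the 5S particle, was at 33.3, 31.9 and 29.9 CPM in the controls, 22.7, 26.1 and 27.3 at 20 µM and 28.7, 29 and 29.2 at 30 µM and fell at 20 µM (-0.32, SE 0.0667, adjusted p = 0.000225). Its rise between the doses (0.19) was lost without 20 µM library 1 (adjusted p = 0.184) and became -0.0033 with library size alone. NIP7 was at 66.2, 67.2 and 72.8 CPM in the controls, 55.4, 50.7 and 55.5 at 20 µM and 62.7, 64.9 and 61.4 at 30 µM and fell at 20 µM (-0.35, SE 0.0495, adjusted p = 6.84e-07); its fall at 30 µM against control (-0.13) was lost without control 3 (adjusted p = 0.173), 30 µM library 1 (0.0677) or 30 µM library 3 (0.108). Exons of COG8 on the other strand cover 20.2% of NIP7 exons, and antisense genes cover 20.2% of NOB1 and 17.1% of NOP14 exons. NOP16 was at 26.4, 25.1 and 23.6 CPM in the controls, 21.6, 18.2 and 22.6 at 20 µM and 22.6, 25.1 and 27.2 at 30 µM; its fall at 20 µM (-0.27) was lost without control 1 (adjusted p = 0.0513) or 20 µM library 2 (0.0868), and its rise between the doses without 20 µM library 2 (0.0615). PPAN was at 8.03, 7.08 and 6.47 CPM in the controls, 5.40, 6.26 and 6.24 at 20 µM and 7.22, 7.96 and 7.76 at 30 µM, and the read-through gene PPAN-P2RY11 covers 56.0% of its exons; its rise between the doses (0.36) was lost without 20 µM library 1 (0.0718). NOP2, an rRNA cytosine methyltransferase, was at 2.73, 3.20 and 1.87 CPM in the controls, 1.70, 2.17 and 1.51 at 20 µM and 1.85, 1.77 and 2.27 at 30 µM, and passed the test in none of the comparisons with all libraries. Its change passed at 20 µM without control 3 (log2 change -0.72, adjusted p = 0.0213) or 20 µM library 2 (-0.68, adjusted p = 0.0455), and at 30 µM without control 3 (-0.59, adjusted p = 0.036). Another gene model on its strand covers 54.4% of its exons. Without NOP2, PPAN and SENP3, an alternative chosen after the data were seen, 44 of the other 47 genes fell and 1 rose at 20 µM, and 35 rose and 2 fell from 20 to 30 µM.

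Some of the genes carry small nucleolar RNAs inside their introns, so that 1 transcript gives both a protein and a guide RNA. In GENCODE 29, 10 of the 50 had entries for such RNAs within their span on the same strand. Among them were TAF1D with 8 entries, GNL3 with 6, NOP56 with 5 and NOP58 with 4. Introns were not checked, and some entries overlap annotated exons of the gene, as in TAF1D and NOP56. Of these 10, 9 fell at 20 µM (median log2 change -0.35), and of the other 40 genes 36 fell and 1 rose (median -0.31). Between the doses 8 of the 10 rose and 1 fell, and of the other genes 28 rose and 1 fell. Of all genes, 16.9% fell and 17.2% rose at 20 µM, and 28.0% rose and 28.9% fell between the doses. The 10 genes and the other 40 were not tested against each other.

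Other genes of the same pathway were taken from lists by role and are described by counts, with no test of the lists. Of all genes tested, 16.9% fell and 17.2% rose at 20 µM. At 30 µM against control 31.3% fell and 29.5% rose, and between the doses 28.9% and 28.0%. With library size alone the falls were 18.3%, 45.5% and 43.6% and the rises 15.9%, 20.0% and 17.2%, in the same order. Of 43 other small subunit biogenesis genes, 32 fell and 1 rose at 20 µM, and 30 rose and 5 fell from 20 to 30 µM. Of 46 other large subunit genes, 35 fell and 1 rose at 20 µM, and 31 rose and 1 fell between the doses. With library size alone the same 2 lists still had 32 and 36 falls at 20 µM, but 16 and 17 rises beside 8 and 10 falls between the doses. At 30 µM against control 13 and 14 genes of these lists fell and 12 and 12 rose, near the shares of all genes. With library size alone that comparison had 24 and 34 falls and 3 and 8 rises. By size of change at 30 µM against control, RIOK3, a kinase on 40S precursors, rose from 28.99 ± 1.92 to 71.9 ± 3.52 CPM (SD, n = 3; log2 change 1.31, adjusted p = 8.5e-20). RCL1, a processome protein, rose from 29.5 ± 1.72 to 69.4 ± 4.90 CPM (log2 change 1.24, adjusted p = 4.9e-19). SBDS (log2 change 0.84, adjusted p = 1.22e-15) and EFL1 (log2 change 0.65, adjusted p = 1.47e-09), which together free the 60S subunit for joining, rose. RRP7A fell from 82.1 ± 2.28 to 41.6 ± 0.403 CPM (log2 change -0.98, adjusted p = 2.07e-18), and the helicase DDX55 fell (log2 change -0.66, adjusted p = 5.7e-13).

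The polymerase lists fell at 20 µM to differing extents. Of 8 other polymerase I genes, 6 fell at 20 µM and 4 at 30 µM against control. The falls at 30 µM included TTF1, the terminator of rRNA transcription (log2 change -0.69, adjusted p = 1.08e-06), POLR1G, a polymerase I subunit (log2 change -0.43, adjusted p = 3.19e-06), and TAF1A, of SL1 (log2 change -0.44, adjusted p = 0.00476). Of 22 polymerase III genes, which supply 5S rRNA and transfer RNA, 15 fell and 1 rose at 20 µM, and 11 fell and 4 rose at 30 µM. POLR3K fell at 30 µM (log2 change -0.86, adjusted p = 1.92e-11) and POLR3D rose (log2 change 0.61, adjusted p = 3.33e-13). All 3 polymerases share 5 subunits, of which 4 fell at each dose against control, and of 7 polymerase II subunits 4 fell at 20 µM and 5 at 30 µM. From 20 to 30 µM the polymerase II list had 2 rises and 4 falls, where the polymerase III list had 8 rises and 4 falls. Of all genes, 28.0% rose and 28.9% fell in that step. With library size alone the polymerase III balance turned to 4 rises and 11 falls, beside 0 and 5 for polymerase II. Under that scaling 17.2% of all genes rose and 43.6% fell.

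The lists of RNA-trimming genes had falls at both doses, beside falls of 16.9% of all genes at 20 µM and 31.3% at 30 µM against control. Of 14 genes of the RNA exosome, which trims rRNA ends, 11 fell at each dose against control, and between the doses 5 rose and 5 fell with TMM but 1 rose and 8 fell with library size alone. EXOSC8 went from 51.3 ± 1.64 CPM in controls to 26.2 ± 0.288 at 30 µM (log2 change -0.97, adjusted p = 3.11e-16), EXOSC2 from 53.01 ± 1.38 to 27.6 ± 1.58 (log2 change -0.94, adjusted p = 3.29e-16), and EXOSC4, at 0.695 CPM in controls, fell (log2 change -1.08, adjusted p = 0.0397). Of 9 tested proteins of RNase MRP and RNase P, 5 fell at each dose. Those with the largest falls at 30 µM were POP5 (log2 change -0.81, adjusted p = 1.37e-09), POP7 (log2 change -0.74, adjusted p = 1.76e-13) and RPP30 (log2 change -0.64, adjusted p = 4.14e-11). Of 11 assembly factors of small nucleolar particles, 8 fell at 20 µM and 7 at 30 µM, where 3 rose; RUVBL1 and TGS1 fell (log2 change -0.49, adjusted p = 2e-09 and log2 change -0.45, adjusted p = 4.48e-07) and ZNHIT6 rose (log2 change 0.45, adjusted p = 1.03e-07). Of 13 tested host genes of small nucleolar RNAs, 9 fell and 1 rose at 20 µM, and 6 fell and 2 rose at 30 µM against control. Between the doses 8 of them rose and 2 fell with TMM (28.0% and 28.9% of all genes), SNHG3 among the risers (log2 change 0.21). With library size alone 1 rose and 4 fell (17.2% and 43.6% of all genes). The next values are for 30 µM against control. SNHG1 went from 96.3 ± 1.99 to 46.3 ± 1.45 CPM at 30 µM (log2 change -1.06, adjusted p = 2.23e-19), and SNHG5 and SNHG3 fell (log2 change -0.68, adjusted p = 1.27e-07 and log2 change -0.47, adjusted p = 1.84e-13).

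Few genes of the ribosomal proteins themselves changed at 20 µM. Of 45 large subunit proteins 2 fell and 3 rose at 20 µM, and of 33 small subunit proteins 2 fell and 3 rose, with median log2 changes of 0.015 and 0.0003. At 30 µM against control 26 and 15 rose with TMM, beside 29.5% of all genes. With library size alone 14 and 10 fell and 1 and 2 rose, so the direction of their calls turned with the scaling. Under that scaling 45.5% of all genes fell and 20.0% rose. The medians of the large and small subunit proteins (log2 change -0.069 and -0.10) lay above the -0.25 of all genes. By size of change RPL28 (log2 change 0.42, adjusted p = 0.00687) and RPL10 (log2 change 0.37, adjusted p = 5.62e-12) rose and RPL26 (log2 change -0.32, adjusted p = 0.00466) fell among the large subunit proteins, and RPS26 (log2 change -0.48, adjusted p = 9.72e-09) and RPS10 (log2 change -0.45, adjusted p = 0.0105) fell and RACK1 (log2 change 0.30, adjusted p = 9.08e-10) rose among the small subunit proteins. Many ribosomal proteins have near-identical pseudogenes, to which counts could be lost. Of 18 mitochondrial ribosome assembly genes 8 fell and 1 rose at 20 µM and 11 fell and 2 rose at 30 µM, led by TFB1M (log2 change -0.78, adjusted p = 2.2e-13), MRM1 (log2 change -0.63, adjusted p = 3.04e-06) and MALSU1 (log2 change -0.52, adjusted p = 5.74e-09).

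**Figure D5:**
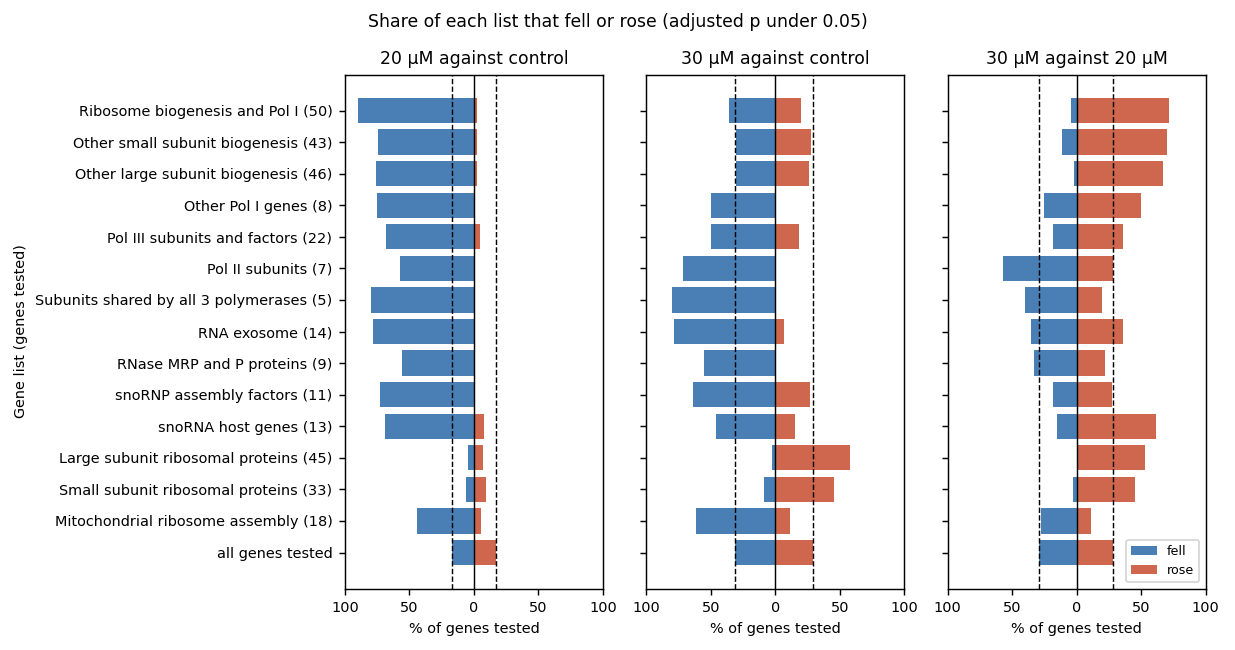
Bars give the percentage of the tested genes of each list that fell (blue, left) or rose (red, right) past adjusted p under 0.05 in each comparison, with dashed lines at the shares of all genes tested; the 3 comparisons share groups. With TMM, as plotted, the biogenesis lists lean left at 20 µM and right from 20 to 30 µM, while the ribosomal protein lists show few calls at 20 µM.

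Of the 10 tested genes of the MYC network, several of whose proteins bind the E-box, 6 rose at 20 µM, and 8 rose and 1 fell at 30 µM against control. The shares of all genes were 17.2% higher at 20 µM, and 29.5% higher and 31.3% lower at 30 µM. MXD1, a repressor that competes with MYC for MAX, rose from 27.4 ± 0.636 CPM in controls to 40.4 ± 1.92 at 20 µM and 104.8 ± 0.944 at 30 µM (log2 change 1.94, adjusted p = 2.77e-26). MXI1, of the same family, rose (log2 change 0.92, adjusted p = 1.69e-13), as did MAX (log2 change 0.90, adjusted p = 3.36e-17). MXD3, also of that family, went the other way and had the lowest value of the list (log2 change -0.87 at 30 µM against control and -0.96 between the doses). Of 9 genes of the p53 response that follows failed ribosome assembly, 2 rose and 2 fell at 20 µM (22.2% each, beside 17.2% and 16.9% of all genes), and 5 rose and 3 fell at 30 µM, which became 3 and 4 with library size alone. BBC3 (log2 change 1.41, adjusted p = 2.74e-15) and TP53INP1 (log2 change 1.30, adjusted p = 7.52e-22) rose at 30 µM and SESN1 fell (log2 change -1.06, adjusted p = 5.49e-16). Whether either list has a part in the changes of the 50 genes was not tested.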

How the data were processed

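Poly(A) RNA or ribosome-depleted total RNA (the labels conflict) of HepG2 was sequenced in 9 libraries, extracted with a kit for fixed tissue per the labels' protocols. The deposited values are raw counts of reads per gene, and per the submitters' processing notes the tools were FastQC, STAR 2.7.10a and HTSeq, with the build hg38; neither the annotation release nor the strand setting is given in the sources used here. The 5 closing HTSeq totals, 40.6% to 44.0% of the records of a library, were left out of library sizes. Symbols came from a gene name table (62686 of 62703 identifiers), and positions and exon lengths from GENCODE 29.

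The quasi-likelihood test of edgeR 4.0.16 (R 4.3.3) was run after filterByExpr and TMM scaling, with robust dispersions (biological coefficient of variation 0.0529), a mean for each group and Benjamini-Hochberg adjustment over 17623 genes per comparison at 0.05. The difference between dose steps is a contrast of the same fit. The SE is the log2 change divided by the square root of F. Libraries of a group differed by more than sampling noise (chi-square over the number of genes 2.10 to 8.02). The fit was tested on simulated data.

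The 50 genes, their roles and the 19 lists were chosen with earlier results of these data known. By rule, library values are given for the polymerase I genes, the extremes of each role at 30 µM and every gene that rose, and from each list the 3 called genes with the largest change at 30 µM. One gene that this rule names is not reported here. Genes outside it (values given for completeness, promoters) were chosen after their values were seen. Alternatives were median-ratio, upper-quartile and library-size scaling, DESeq2 1.42.0, limma voom (limma 3.58.1), no low-count filter, a mean of at least 50 counts, only the groups compared, a replicate block, each library left out, 3 libraries left out together and a change of at least 1 log2 unit.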

Additional observations from a re-analysis of the deposited data

How the results depend on the processing

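The fall at 20 µM held best: 43 of 46 calls passed under every alternative fit of that comparison, as did 21 of 28 for 30 µM against control, 21 of 38 between the doses and 38 of 44 for the difference between steps. Leaving out each library in turn gave 43 to 46 falls at 20 µM and 1 rise throughout, 17 to 19 falls and 8 to 11 rises at 30 µM against control, 1 to 2 falls and 32 to 37 rises between the doses, and 41 to 45 genes higher and 0 lower for the difference between steps. Demanding a change of at least 1 log2 unit left 0 calls in either direction in all 3 dose comparisons, since no change was that large. With library size alone 36 genes fell and 4 rose at 30 µM against control, and 11 fell and 20 rose between the doses. Upper-quartile factors gave 6 rises at 30 µM against control and 3 falls between the doses. The falls between the doses numbered 1 with median-ratio factors, with DESeq2, with no low-count filter and when control 1 was left out with the last libraries of both doses, which an earlier look had found to vary together; the cause was not tested.

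Sign changes of values past the test in either fit came with library size alone, which by construction moves every log2 change with 30 µM downward. At 30 µM against control these were POLR1A (-0.17), RRN3 (-0.014), TAF1D (-0.18), NOP10 (-0.033), UTP4 (-0.16), WDR43 (-0.19), RRP9 (-0.012), BYSL (-0.045), NOB1 (-0.16), PES1 (-0.17), BOP1 (-0.086) and GNL2 (-0.054). Between the doses they were POLR1A (-0.0022), POLR1B (-0.032), NCL (-0.069), FBL (-0.16), NOP58 (-0.16), NHP2 (-0.19), UTP15 (-0.0023), WDR75 (-0.11), NOB1 (-0.16), WDR12 (-0.16), LAS1L (-0.19), RRS1 (-0.0033) and MRTO4 (-0.060). A replicate block gave the same counts as the fit without it, 45 falls and 1 rise, 18 and 10, 2 and 36, and 44 higher and 0 lower for the difference between steps. Correlations between libraries did not show that the numbers pair them, though with 3 libraries per group they cannot exclude it. Of 9 same-numbered pairs 4 correlated above 0.1 (range -0.372 to 0.366), and 0 libraries correlated best with their own number in both of the other groups. NOP2 had the fewest counts of the 50 genes, with an SE of its log2 change at 20 µM of 0.231, which limits what this depth can show for it.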
